A study of Mus musculus with 14 samples.

Results

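Divergent promoters, where a gene read to the left and a gene read to the right start close together, made up 1309 of the 14659 H3K4me3 regions (8.93%) found in LSK cells of mice on a high-fat or a low-fat diet. The regions were the union of the 7 deposited H3K4me3 peak lists, in which peaks that overlapped or touched were joined. A region was kept when it came within 1000 bp of a minus-strand start and of a plus-strand start, with the minus-strand start at or before the plus-strand start and at most 1000 bp from it. Beyond the calling of the peaks, no peak height, fold enrichment or diet entered this choice. Promoters called in no list are left out, so every share called below is a share of regions called in at least 1 list. The longest list, that of HFD-LSK replicate 2 with 13094 peaks, called 97.8% of the members. The LSK cells (Lin-Sca1+cKit+, the bone marrow fraction that holds hematopoietic stem and progenitor cells) were sorted from the tibias and femurs of male C57BL/6J mice. Per the study's methods the mice were bought at an age of 3 to 4 wk and fed a diet with 60% of its energy from fat (HFD) or with 10% (LFD) for 16 to 20 wk. There were 3 HFD-LSK and 4 LFD-LSK libraries, profiled with an antibody to H3K4me3 by an assay that the labels call CUT&RUN in the titles and Cut-and-Tag in the protocol. The labels name no transgene or deletion, and they do not say how many mice gave the cells of 1 library. Every p-value below therefore measures the spread between libraries, which may be technical.

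H3K4me3 is placed on the nucleosomes that flank a start of transcription, by the SET1 and MLL methyltransferases, and marks promoters that are active or held ready. A divergent promoter usually has 1 nucleosome-depleted stretch, often rich in CpG, from which RNA polymerase II leaves in both directions. Many such pairs join housekeeping genes of DNA repair, the mitochondrion and protein turnover, and others join a coding gene with a long noncoding RNA.

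The pairs differed in composition. In 685 regions both genes were protein coding, in 609 a coding gene faced a noncoding gene, and in 15 neither gene was coding. The noncoding gene of the 609 mixed pairs was a long noncoding RNA in 567. The starts of a pair were a median of 109 bp apart, with the middle 50% between 50 and 233 bp, and 1010 pairs (77.2%) lay within 250 bp. A region held both starts in 1147 cases (87.6%), more than 2 annotated starts in 61 and more than 1 qualifying pair in 25. At the upper limit of the distance, Pcgf2–Psmb3 (1000 bp, 7 lists) and Haghl–Ccdc78 (994 bp, 7 lists) were just inside, and Myd88–Acaa1a (1010 bp, 7 lists) just outside. A further 826 regions had starts that faced apart but overlapped, the minus-strand start lying past the plus-strand start. They were not counted as divergent.

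The DNA between the starts of 7 pairs shows what such a shared promoter looks like. They are 3 pairs known from textbooks, 3 of the pairs with the highest enrichment and the Hoxa9 pair from among the widest regions. The sequences are the plus strand, 5′ to 3′, from the base after the minus-strand start to the base before the plus-strand start, taken from the RefSeq promoter windows of GRCm38.p6. Capitals mark letters of 9 motifs searched on both strands, which are described below. The intervals are chr9:53536829-53536888 for Atm–Npat, chr11:101551956-101552106 for Brca1–Nbr1, chr17:34187331-34187555 for Psmb9–Tap1, chr13:14613038-14613241 for Mrpl32–Psma2, chr6:124712187-124712288 for Emg1–Phb2, chr12:40037988-40038076 for Arl4a–Arl4aos and chr6:52227371-52227503 for Hoxa9–Gm52902.
Atm–Npat: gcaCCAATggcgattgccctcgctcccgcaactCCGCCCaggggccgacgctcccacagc
Brca1–Nbr1: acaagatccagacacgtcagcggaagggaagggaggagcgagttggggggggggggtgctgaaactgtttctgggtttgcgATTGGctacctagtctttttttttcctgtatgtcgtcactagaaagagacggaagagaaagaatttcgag
Psmb9–Tap1: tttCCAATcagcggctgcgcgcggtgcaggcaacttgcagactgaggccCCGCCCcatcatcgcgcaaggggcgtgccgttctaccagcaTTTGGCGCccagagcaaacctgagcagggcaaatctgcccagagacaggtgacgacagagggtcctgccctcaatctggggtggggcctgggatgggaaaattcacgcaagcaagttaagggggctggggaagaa
Mrpl32–Psma2: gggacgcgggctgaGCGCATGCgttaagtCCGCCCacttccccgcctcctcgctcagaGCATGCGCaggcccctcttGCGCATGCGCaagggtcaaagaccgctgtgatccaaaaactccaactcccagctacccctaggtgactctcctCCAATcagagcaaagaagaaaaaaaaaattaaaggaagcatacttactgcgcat
Emg1–Phb2: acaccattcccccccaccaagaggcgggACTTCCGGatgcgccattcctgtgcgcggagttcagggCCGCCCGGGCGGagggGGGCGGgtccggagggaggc
Arl4a–Arl4aos: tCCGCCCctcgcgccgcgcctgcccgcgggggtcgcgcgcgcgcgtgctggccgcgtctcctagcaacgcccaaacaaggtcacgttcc
Hoxa9–Gm52902: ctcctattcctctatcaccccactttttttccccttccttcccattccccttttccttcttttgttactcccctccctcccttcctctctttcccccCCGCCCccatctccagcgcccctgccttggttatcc

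Atm–Npat held 1 CCAAT box (the NFY motif) and 1 GGGCGG (SP1) within 60 bases of 71.7% GC. Mrpl32–Psma2 held GCGCATGC, the core NRF1 motif, or its reverse complement 4 times, once as a pair of overlapping copies, beside 1 SP1 and 1 NFY motif. Emg1–Phb2 held the only ETS motif (CCGGAAGT) of the 7 intervals, read here on the other strand, and 3 SP1 motifs. Arl4a–Arl4aos was the most GC-rich interval, at 76.4% with 17 CpG in 89 bases. The Hoxa9–Gm52902 interval was 55.6% GC with 2 CpG in 133 bases.

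The letters around the starts were set beside those of genes with a promoter of their own, mainly for pairs of coding genes. Each gene was given the RefSeq window nearest to its start, from 250 bases before to 50 after. A window was found for 85.8% of the 1370 genes in pairs of coding genes and for 80.1% of the 7444 coding genes that stood alone in their region. Of these windows 57.5% and 54.1% were set at the very start used here, and 89.4% and 84.2% within 250 bp of it. More windows of single coding genes thus lay off the start, and the part of this in the shares below was not tested. In mixed pairs fewer than 80% of genes of either kind had a window, 79.6% of the coding and 78.3% of the noncoding genes. For them only CpG and the ETS and YY1 motifs of the coding genes are given. The ratio of observed to expected CpG was at least 0.6 in 87.8% of the windows of coding pairs, in 75.5% of those of single coding genes and in 36.5% of all 27025 genes of the promoter table. The median GC was nearly equal in the first 2 sets, 62.3% and 61.7%, against 52.7% in the table. In the coding genes of mixed pairs the CpG ratio was at least 0.6 in 83.3% of the windows.

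The motifs fell into those more frequent in coding pairs, those alike and those less frequent. CCGGAAGT, bound by ETS factors, occurred in 13.3% of the windows of coding pairs, in 7.63% of those of single coding genes and in 3.99% of the table. AAGATGGC, bound by YY1, occurred in 8.51%, 4.37% and 2.87%. TATAAA, the TATA box, was less frequent, at 4.60%, 6.65% and 14.2%. CCAAT occurred in 43.8%, 38.1% and 38.0%. GGGCGG occurred in 66.9%, 68.9% and 35.9%, and GCGCATGC in 6.55%, 5.56% and 2.80%. TGACGTCA, the cyclic AMP response element, occurred in 4.17%, 3.20% and 1.85%, TTTCCCGC or TTTGGCGC, bound by E2F, in 3.83%, 3.1% and 1.63%, and ACTACAAT, bound by ZNF143, in 1.45%, 1.06% and 0.773%. In the coding genes of mixed pairs CCGGAAGT occurred in 7.63% and AAGATGGC in 4.54% of the windows, near the shares of single coding genes. All these shares are descriptions without a test, because the windows of a pair often overlap and then count the same bases for both genes.

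Libraries differed in depth and 1 of them in its background, which bears on every value by diet. The peak lists give no read totals, but fold enrichment and p together fix how many fragments lay at a summit. The summit level used below is that number divided by the mean coverage of the library over the genome, which MACS2 takes as the lowest background and which was 0.0891 to 0.268 fragments per base. The lowest level at which a peak was called ran from 29.8 in HFD-LSK replicate 2 to 101 in LFD-LSK replicate 4. The median summit of a divergent promoter held 21 to 61 fragments, and counting error alone gives 95% exact Poisson intervals of 13 to 32.1 and of 46.7 to 78.4 fragments for these. In HFD-LSK replicate 3 the local background at divergent summits was 9.80 times this mean, against 1.00 to 1.51 times in the other 6 libraries, so its fold enrichments stood apart. Of 10 genes that mark LSK cells, 9 had a region in at least 5 lists. The exception was Ly6a, which encodes Sca-1 and had none in any list. Of 17 marker genes of mature blood, erythroid, endothelial or stromal cells, 16 had no region in any list.

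Divergent promoters were called more often than single-gene promoters in all 7 libraries. They were called in 85%, 97.8% and 90.9% of regions in HFD-LSK replicates 1 to 3 and in 76.1%, 88.9%, 87.5% and 65.0% in LFD-LSK replicates 1 to 4. The 8042 regions with a single annotated start were called in 69.7%, 93.4% and 80.2%, and in 56.7%, 78.0%, 74.1% and 50.3%, in the same order. The difference averaged 12.7 percentage points ± 4.69 (SD, n = 7 libraries; exact sign-flip permutation test, 2-sided, p = 0.0156, the smallest that 7 libraries can give). It was smallest, 4.42 points, in HFD-LSK replicate 2, where nearly all promoters were called. Joining the peaks of more lists can only widen a region, which then comes near a second start more easily. With regions that lay over a start themselves the difference was 9.93 points (exact sign-flip test, p = 0.0156). A second start within 1000 bp still counted in this setting, so it does not remove the effect of widening.

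Over all lists, 694 divergent promoters (53.0%) were called in 7 of 7 and 53 (4.05%) in 1. Single-gene promoters were called in 7 of 7 in 33.0% and in 1 list in 10.8%. Pairs of coding genes were called most consistently, 410 of 685 (59.9%) in all 7, beside 34.1% of the single coding genes. Mixed pairs reached 46.0%, and the 15 pairs without a coding gene 26.7%. The promoters with overlapping starts, which were not members, were called in all 7 lists in 48.7%.

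**Figure D1:**
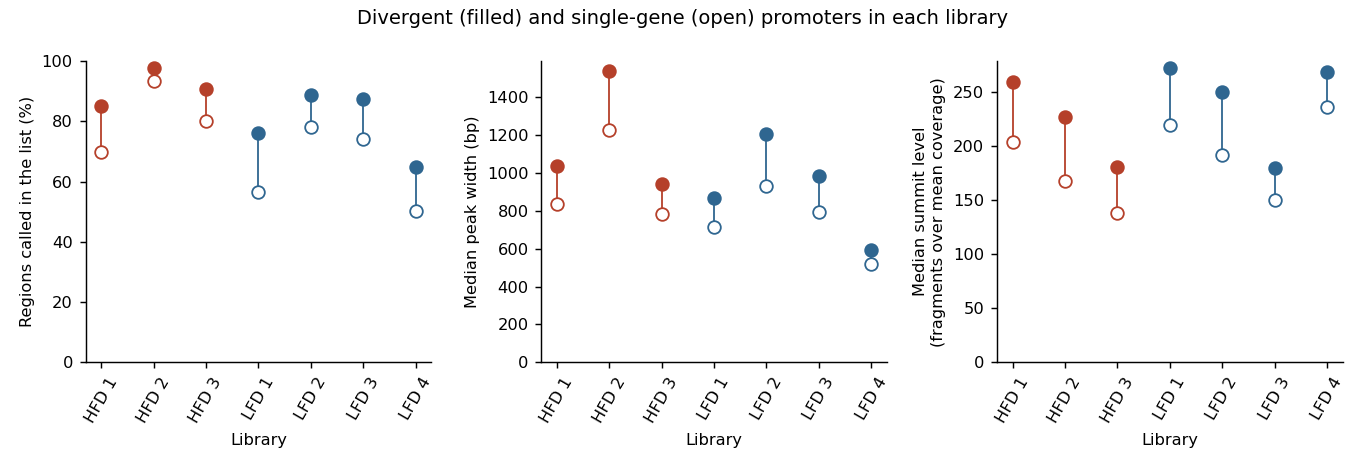
Share of regions called (%), median peak width (bp) and median summit level (fragments over mean coverage) in each of the 3 HFD-LSK (red) and 4 LFD-LSK (blue) libraries, with divergent promoters as filled and single-gene promoters as open points. The filled point lies above the open point in all 7 libraries and all 3 panels, by 4.42 to 19.4 percentage points, 76.0 to 314 bp and 0.193 to 0.439 on the log2 scale.

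Peaks over divergent promoters were also wider and higher. Their median width was 1039, 1540.5 and 940 bp in the HFD-LSK libraries and 866, 1208, 986 and 596 bp in the LFD-LSK libraries, against 837, 1227 and 783 bp, and 714, 931, 795 and 520 bp, for single-gene promoters. The difference was 196 bp ± 79.9 (SD, n = 7; exact sign-flip test, p = 0.0156). A wide region reaches a second start more easily than a narrow one, so the rule itself favours width. When a region had to lie over a start and not merely near it, the difference was 188 bp, and between coding pairs and single coding genes it was 257 bp (both p = 0.0156 by the same exact test). In both settings a second start within 1000 bp still counted, so neither removes the favour given to width.

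In fold enrichment over local background the medians for divergent promoters were 5.94 to 19.5, and for single-gene promoters 5.29 to 14.9. The log2 ratio of the medians was 0.23 ± 0.11 (SD, n = 7; exact p = 0.0156), and it was lowest, 0.05, in HFD-LSK replicate 3. Without this library it was 0.26 (exact p = 0.0312, the smallest that 6 libraries can give). The summit level, a measure added with the values in view that does not divide by local background, was 180 to 272 at divergent and 138 to 236 at single-gene promoters, a log2 ratio of 0.33 ± 0.08 (SD, n = 7; exact p = 0.0156), and 0.39 in HFD-LSK replicate 3.

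The summit, the highest point of a peak, sat between the starts of a divergent pair more often than it sat upstream of a single start. Between 20.2% and 25.6% of divergent summits lay between the starts, while 14.9% to 20.9% of single-gene summits lay upstream of theirs. The difference was 5.53 points ± 2.59 (SD, n = 7; exact p = 0.0156), and 10.3 points between coding pairs and single coding genes. The remaining summits were shared evenly by the sides, with 36.7% to 39.8% beyond the plus-strand start and 34.5% to 40.8% beyond the minus-strand start. Summits beyond a start lay a median of 116 to 170 bp into the gene, and those of single genes a median of 188 to 225 bp downstream of the start counting upstream summits as negative.

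Pairs of a coding and a noncoding gene were not symmetric. The summit lay on the coding side in 70.6%, 73.3% and 70.2% of the mixed pairs in HFD-LSK replicates 1 to 3, and in 70.4%, 71.7%, 67.3% and 61.9% in LFD-LSK replicates 1 to 4. It lay on the noncoding side in 9.01% to 14.2%, and between the starts in 16.5% to 24.2%. The excess of the coding side was 57.7 points ± 5.54 (SD, n = 7; exact p = 0.0156). Peaks reached a median of 438 to 902 bp into the coding gene and 45.5 to 366 bp into the noncoding gene. Around single genes they reached 512 to 927 bp downstream and 55.0 to 273 bp upstream. Around all divergent pairs they reached 277 to 714 bp beyond the plus-strand start and 268 to 675 bp beyond the minus-strand start. The reaches were not tested.

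**Figure D2:**
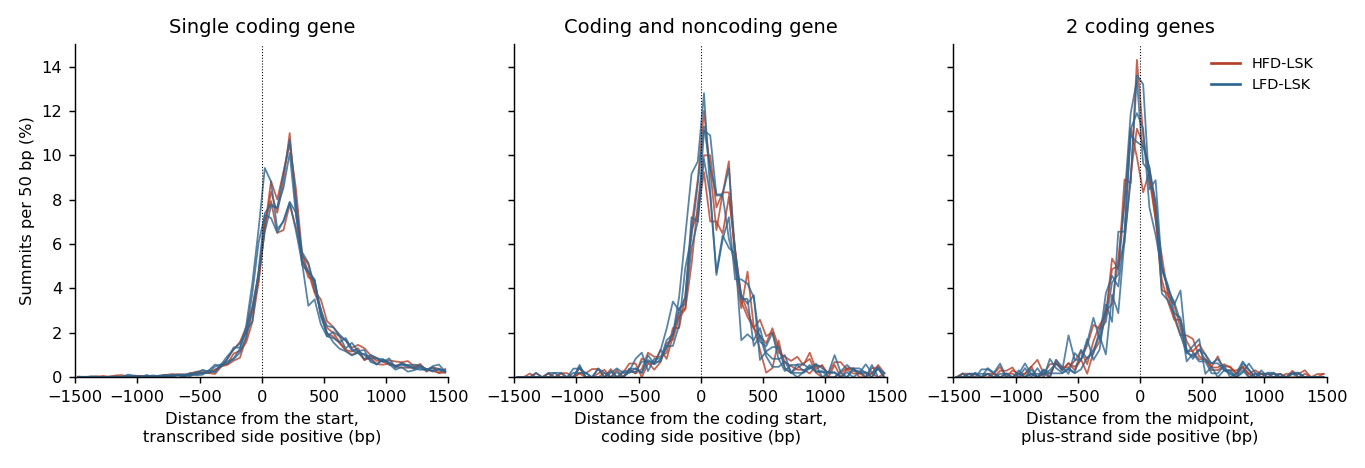
Distribution of peak summits in 50 bp steps (% of summits), 1 line per HFD-LSK (red) or LFD-LSK (blue) library, around the start of single coding genes, around the coding start of coding and noncoding pairs, and around the midpoint of pairs of coding genes. The step from 200 to 250 bp downstream held 7.79% to 11% of the summits of single coding genes, whereas the steps on either side of the midpoint of coding pairs held 9.91% to 14.3% and 8.33% to 13.2%.

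Which gene carried the summit varied between libraries. Among the 694 divergent promoters called in all 7 lists, the summit lay over the same gene in all 7 in 181 (26.1%) and between the starts in all 7 in 27 (3.89%). It lay over 1 gene in some libraries and over its partner in others in 256 (36.9%). Of the 280 mixed pairs among them, the coding gene carried all 7 summits in 95 and the noncoding gene in 5. Of the 410 coding pairs, 81 (19.8%) kept the summit on 1 gene and 176 (42.9%) changed between genes.

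The distance between the starts moved with the place of the summit. With starts at most 50 bp apart (330 pairs), 4.78% to 11.2% of summits lay between them, below the 14.9% to 20.9% upstream of single starts. With starts 51 to 100 bp apart it was 13% to 19.3%, with 101 to 200 bp 23.9% to 30.1%, and with 301 to 500 bp 39.1% to 53.8%. For the 108 pairs 501 to 1000 bp apart it was 31.0% to 37.9%. A longer interval takes up more of the peak. The length of the interval over the width of the peak, held to at most 100% and averaged over regions, was 2.10% to 4.92% for the closest pairs and 49.9% to 80.2% for the most distant. The share of summits between the starts was above this ratio in all 7 libraries up to 200 bp and in all but LFD-LSK replicate 4 from 201 to 500 bp, and below it in all 7 at 501 to 1000 bp. The ratio counts the whole interval, also where it runs past the peak and no summit can lie. At 501 to 1000 bp the median peak was only 618 to 1821 bp wide. The shares below the ratio there do not show fewer summits than an even spread would give. These values are a description and no test was run. The share of regions called in all 7 lists was 48.8% for the closest pairs and between 53.2% and 55.8% for the 5 wider classes.

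**Figure D3:**
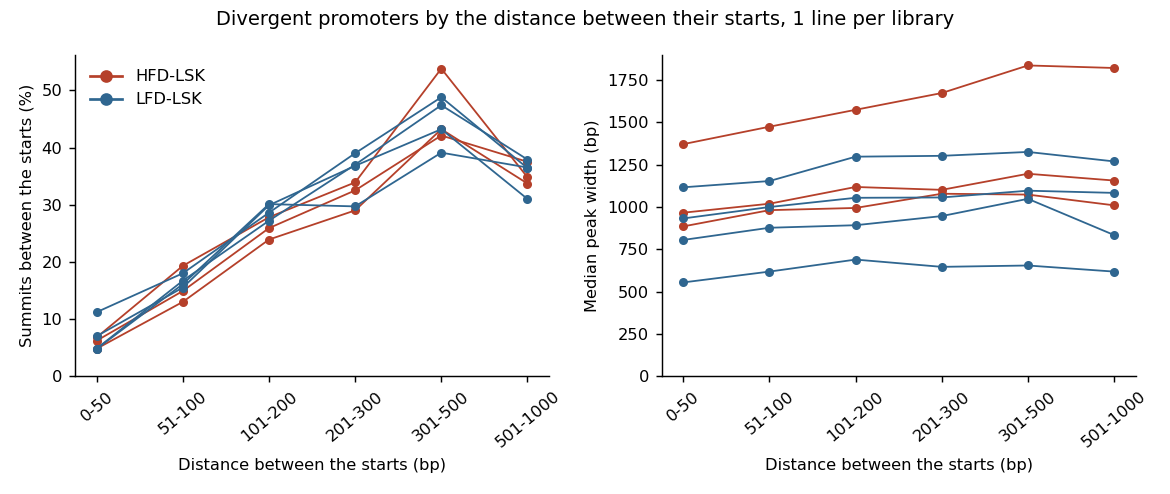
Share of summits between the starts (%) and median peak width (bp) against the distance between the starts (bp), 1 line per HFD-LSK (red) or LFD-LSK (blue) library. The share of summits between the starts went from 4.78% to 11.2% at 0 to 50 bp up to 39.1% to 53.8% at 301 to 500 bp in all 7 libraries, and the median width at 0 to 50 bp was 554 to 1371 bp.

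Regions with more than 1 peak in a list were uncommon, 0.781% to 6.35% of divergent and 0.679% to 6.24% of single-gene promoters. The difference of 0.826 points (exact p = 0.0312) was not found between coding pairs and single coding genes, at 0.0125 points (exact p = 0.953), and it was -0.41 points when noncoding genes were left out of the annotation (exact p = 0.0156). Without HFD-LSK replicate 1 or any 1 of the 4 LFD-LSK libraries the exact p was 0.0625 to 0.125, where 0.0312 is possible.

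Of 14 gene pairs known as divergent from textbooks, 8 met the rule. The annotated starts of the other 6, among them Hspd1–Hspe1, Surf1–Surf2, Col4a1–Col4a2, Tk1–Afmid and Ppat–Paics, overlapped by 84 to 584 bp. Ppat–Paics was not assigned to a region as an overlapping pair, and whether a region lies there was not checked. Among the members, Atm encodes the kinase that senses DNA double-strand breaks and Npat an activator of histone genes. Their starts were 61 bp apart, and their region (chr9:53535857-53538024) was called in all 7 lists with summit levels of 304, 298 and 242 in HFD-LSK and 323, 256, 187 and 213 in LFD-LSK. In 6 libraries the summit lay over Npat, and in HFD-LSK replicate 3 between the starts.

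Mcm4, a subunit of the replicative helicase, and Prkdc, the catalytic subunit of DNA-dependent protein kinase, started 44 bp apart. Their summit levels were 324, 306 and 268 in HFD-LSK and 407, 383, 165 and 359 in LFD-LSK, and the summit lay over Prkdc in all libraries except LFD-LSK replicate 3. The groups overlapped at this pair and at Atm–Npat.

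Psmb9, an immunoproteasome subunit, and Tap1, a peptide transporter of antigen presentation, had the highest levels of the textbook pairs, 513, 444 and 423 in HFD-LSK and 487, 511, 367 and 404 in LFD-LSK. Their starts were 226 bp apart, and the summit lay between them in 6 of 7 libraries. Brca1–Nbr1 (152 bp) and Wrap53–Trp53 (98 bp) were each called in 6 lists and not in LFD-LSK replicate 4, the library with the highest calling limit. The summit lay over Nbr1 in all 6 for the former, and over Wrap53 in 5 of 6 for the latter. Sirt3–Psmd13, a mitochondrial deacetylase and a proteasome subunit, kept its summit over Sirt3 in all 7. Gart–Son, with starts 852 bp apart, had it between them in 6 of 7.

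The 10 divergent promoters with the highest mean percentile by fold enrichment, counting 0 where a list lacked them, were pairs of coding genes except for Arl4a and its antisense RNA Arl4aos. Arl4a–Arl4aos (97.9), Cep170–Sdccag8 of the centrosome (97.8), Dolk–Nup188 of dolichol synthesis and the nuclear pore (97.8) and Pign–Relch (97.1) led, followed by Polr3g–Mblac2, Tsacc–Cct3, Mrpl32–Psma2, Emg1–Phb2, Rgs9bp–Ankrd27 and Plaa–Ift74 at 93.7 or more. Arl4a carried the summit in all 7 libraries and Arl4aos in none. At Mrpl32–Psma2, a mitochondrial ribosomal protein and a proteasome subunit, the summit lay between the starts in all 7, with levels of 627, 474 and 207 in HFD-LSK and 426, 465, 322 and 314 in LFD-LSK. At Emg1–Phb2 it lay between them in 6 of 7.

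The 5 widest divergent regions held regulators of transcription and signaling. They were Gm46977–Etv6 (8434 bp), Hoxa9–Gm52902 (7805 bp), Gm20467–Nkx2-3 (7677 bp), A830031A19Rik–Bcl11a (6957 bp) and Gm20544–Smad7 (6143 bp). Etv6, Hoxa9 and Bcl11a encode transcription factors of hematopoietic stem and progenitor cells, and Smad7 an inhibitor of TGF-β signaling. In all 5 the partner was a noncoding RNA or a predicted gene. Of the 50 widest, which were at least 3354 bp, 32 (64.0%) were mixed pairs, against 46.5% of all divergent promoters. The widths came from few libraries. The Hoxa9 peak was 7805 bp in HFD-LSK replicate 2, 3004 bp in LFD-LSK replicate 2 and 517 to 1619 bp in the other 5. Its summit lay 5518 to 5520 bp downstream of the Hoxa9 start in 5 libraries, and whether that is still inside the gene was not tested. The Bcl11a summit was 858 to 970 bp into the gene in the 3 HFD-LSK and 1 of the LFD-LSK libraries and 4299 to 4503 bp in the other 3 LFD-LSK libraries. The levels at these summits did not separate the diets.

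**Figure D4:**
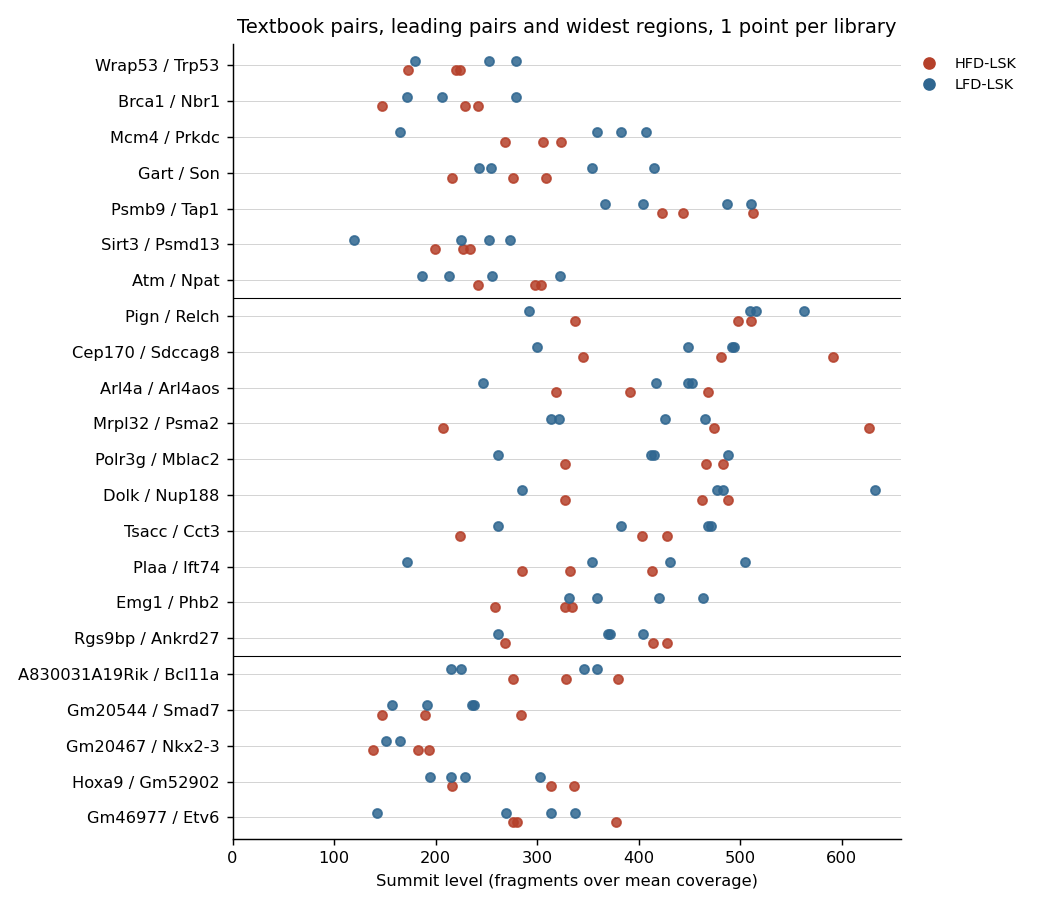
Summit level (fragments over mean coverage) of 7 textbook pairs (top), the 10 pairs of highest mean percentile (middle) and the 5 widest regions (bottom), 1 point per HFD-LSK (red) or LFD-LSK (blue) library that called the region. The diets overlap in every row, and Psmb9–Tap1 lies at 367 to 513 and Mrpl32–Psma2 at 207 to 627.

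Members of pathways were divergent to different degrees. Of 10994 protein-coding genes with a region, 1953 (17.8%) were part of a divergent pair. Among genes of mitochondrial complex I and its assembly it was 19 of 44 (43.2%), and among DNA repair and replication genes 24 of 63 (38.1%). For proteins of the mitochondrial ribosome it was 24 of 73 (32.9%). It was 5 of 17 for enzymes and subunits that set or remove H3K4 methylation, 3 of 20 for oxidative stress defense, 4 of 29 for innate and interferon signaling and 3 of 24 for regulators of hematopoietic stem and progenitor cells. These are counts without a test.

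The DNA repair list had 23 divergent regions, of which 14 (60.9%) were called in all 7 lists, beside 53.0% of all divergent promoters and 59.9% of the coding pairs, with a median mean percentile of 59.8 beside 57.0 over all divergent promoters. Fkbp3–Fancm (91.0) of the Fanconi anemia pathway, Xpc–Lsm3 (87.9) of nucleotide excision repair and Gm11423–Lig3 (80.4) were among the highest. Rad51c–Tex14 was called in a single list. At Fkbp3–Fancm the summit lay between the starts in 4 libraries and over Fkbp3 in 3, never over Fancm. Aimp2–Pms2, Pxmp2–Pole, Palb2–Dctn5, Rpa3–Umad1 and Pcna–Cds2, which hold genes of mismatch repair, replication and recombination, followed at 70.4 to 78.7.

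Of the 23 regions with a mitochondrial ribosome gene, 17 (73.9%) were called in all 7 lists, against 53.0% of all divergent promoters and 59.9% of the coding pairs. Only 3 of the 23 had a noncoding partner. Their median mean percentile was 59.7, against 57.0 over all divergent promoters. Mrpl47–Ndufb5 and Ndufs6–Mrpl36 paired a gene of the ribosome with a gene of complex I, and Mrpl46–Mrps11 paired 2 genes of the ribosome. Complex I had 19 regions, 11 of them (57.9%) called in all 7 (median 56.8), near the shares of all divergent promoters and of coding pairs, led by Ndufaf3–Dalrd3 (89.8), Ndufb1–Cpsf2 (89.7) and Ndufaf2–Ercc8 (88.0), the last joining an assembly factor to a gene of transcription-coupled repair. None of the complex I partners was noncoding.

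The smaller lists had named partners of both kinds. The H3K4 methyltransferase genes Kmt2c and Kmt2b faced the noncoding genes 4831440E17Rik and Mir3569, and Setd1b faced Rhof, and the 3 were called in all 7 lists. Rbbp5, a shared subunit of these enzymes, faced 6030442K20Rik (6 lists), and the demethylase gene Kdm2b faced A930024E05Rik (5 lists). Kmt2c had its summit between the starts in all 7 libraries, and Kmt2b carried it in all 7. Among innate genes, Irak4, Irf2 and Irf3 were called in all 7 lists and Nfkbia, the inhibitor of NF-κB, in 6. The Irf2 summit lay 1234 to 1538 bp into the gene in all 7. Among oxidative stress genes, Txn1, Prdx2 and Sirt3 were called in all 7.

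The 5 pairs of coding genes with the closest starts were Tti1–Rprd1b and Usp35–Kctd21 (0 bp) and Smpd2–Ppil6, Capza1–St7l and Ears2–Ubfd1 (1 bp). The summit lay over Ubfd1 in all 7 libraries and over Smpd2 in all 6 that called it, although their starts were 1 bp apart.

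Diet was compared in 3 ways, and divergent promoters did not separate HFD-LSK from LFD-LSK in any of them. The share called was 91.2% ± 6.42 (SD, n = 3) in HFD-LSK and 79.4% ± 11.2 (n = 4) in LFD-LSK, a difference of 11.8 points (exact permutation test over the 35 assignments of libraries, 2-sided, p = 0.229, with 0.0286 the smallest possible). With equally many peaks taken from each list the difference was -2.44 points (exact p = 0.657). The median peak width was 1173 bp ± 322 (n = 3) and 914 bp ± 255 (n = 4), 259 bp apart (exact p = 0.343). The median percentile of divergent peaks in their list was 64.8 ± 8.49 (n = 3) and 65.9 ± 1.68 (n = 4), a difference of -1.15 (exact p = 0.886). It was 3.6 (exact p = 0.200) without HFD-LSK replicate 3 and 4.80 (exact p = 0.229) by -log10 p in place of fold enrichment.

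Presence in the lists of only 1 diet was rare. Of 1309 divergent promoters 3 appeared in all 3 lists of HFD-LSK and in 0 of the 4 of LFD-LSK, where 44 of all 14659 regions, 0.300%, were. None was called in all 4 LFD-LSK and no HFD-LSK list, as was the case for 0 of all regions (0%). For 1 region such a pattern has an exact Fisher p of 0.0286 before any adjustment. The 3 were H2bc9–H3c7 (chr13:23544092-23544931) in the replication-dependent histone cluster, Gm30933–Snx19 (chr9:30427021-30427698) and Gm33224–Gm39693 (chr1:166047816-166048529).

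Their summit levels lay below those of the median divergent promoter, 259, 227 and 181 in HFD-LSK replicates 1 to 3. The summit of H2bc9–H3c7 held 30, 35 and 7 fragments (levels 149, 131 and 60.4), that of Gm30933–Snx19 23, 26 and 17 (115, 96.9 and 147) and that of Gm33224–Gm39693 19, 13 and 8 (94.6, 48.5 and 69.1). The LFD-LSK libraries called peaks from levels of 58.1 to 101 upward. None of the 3 regions lay over a start. The H3c7 summit was 340 to 406 bp and the Snx19 summit 178 to 300 bp into the gene, and the Gm33224 summit 699 to 967 bp into that gene. Histone genes are near-identical copies, so reads there may be split between them.

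Of the 4395 regions called in all 7 lists, 694 were divergent, and their ranks by fold enrichment were compared between the diets. In 11 of the 694 (1.59%) every HFD-LSK rank was nearer the top than every LFD-LSK rank, where 117 of all 4395 regions were (2.66%). In 17 (2.45%) every HFD-LSK rank was farther from the top, where 105 of all regions were (2.39%). The median rank difference, HFD-LSK minus LFD-LSK, was 59.1 places over the divergent promoters and -29.0 over all regions. By Benjamini-Hochberg adjustment over the 4395 exact permutation tests no region passed. The lowest adjusted p was 0.949, and 115 regions, 16 of them divergent, had an unadjusted exact p below 0.05. By summit level in place of fold enrichment 19 were nearer and 19 farther, and in ranks over the whole list 7 and 30, both alternatives added with the values in view. The counts over all 4395 regions by these measures are not given here. Whether 7 and 30 differ from the share over all regions therefore cannot be read from them.

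Among the 11 nearer the top, Gm33355–Commd3 had the largest difference, with ranks of 2039, 1002 and 1829 in HFD-LSK and 2794, 4095, 3987 and 3898 in LFD-LSK (exact p = 0.0571). Rrm2b–Gm49085, which holds the p53-inducible ribonucleotide reductase subunit, ranked 1202, 923 and 1432 in HFD-LSK and 2064 to 4002 in LFD-LSK (exact p = 0.0571). Gm40163–Odf2l, Klhdc4–Gm24283 and Itpkc–Coq8b differed by -1744, -1737 and -1501 places (exact permutation p = 0.0286, 0.0286 and 0.171). In 4 of these 5 the coding gene faced a noncoding one, as it did in 280 of the 694 divergent promoters called in all 7 lists. Noncoding partners also occurred among the pairs farther from the top, named below, and the difference was not tested. By summit level the 5 differences were -973, -326, -1585, -872 and -551 places in this order, and without LFD-LSK replicate 4 that of Rrm2b was -2912 in place of -1920.2.

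Among the 17 farther from the top, Lmf2–Ncaph2 led. Lmf2 is a lipase maturation factor and Ncaph2 a subunit of condensin II. Their ranks were 4155, 3715 and 4363 in HFD-LSK and 1644, 1192, 63 and 1548 in LFD-LSK (exact p = 0.0286). Their summit levels overlapped between the diets, at 264, 231 and 181 in HFD-LSK and 281, 261, 330 and 292 in LFD-LSK. At Idh1–Pikfyve, with the cytosolic isocitrate dehydrogenase and a phosphoinositide kinase, the ranks were 3358, 4225 and 4294 against 729, 2539.5, 1557 and 334 (exact p = 0.0571), while the summit levels overlapped, at 284, 224 and 207 in HFD-LSK and 332, 192, 187 and 382 in LFD-LSK. Hsd17b12–Gm39885, Stx12–Gm13033 and 2610507I01Rik–Mrpl55 differed by 2717, 2201 and 2119.7 places. Without LFD-LSK replicate 4 the difference at Hsd17b12 was 4220.5, and without HFD-LSK replicate 2 that at Mrpl55 was 1296. By summit level the differences at Lmf2, Idh1, Hsd17b12, Stx12 and Mrpl55 were 915, 210, 755, 813 and 788 places. None of these exact permutation tests, in either direction, passed adjustment (adjusted p = 0.949 for those at 0.0286 and 0.0571, and 0.963 for Itpkc–Coq8b).

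**Figure D5:**
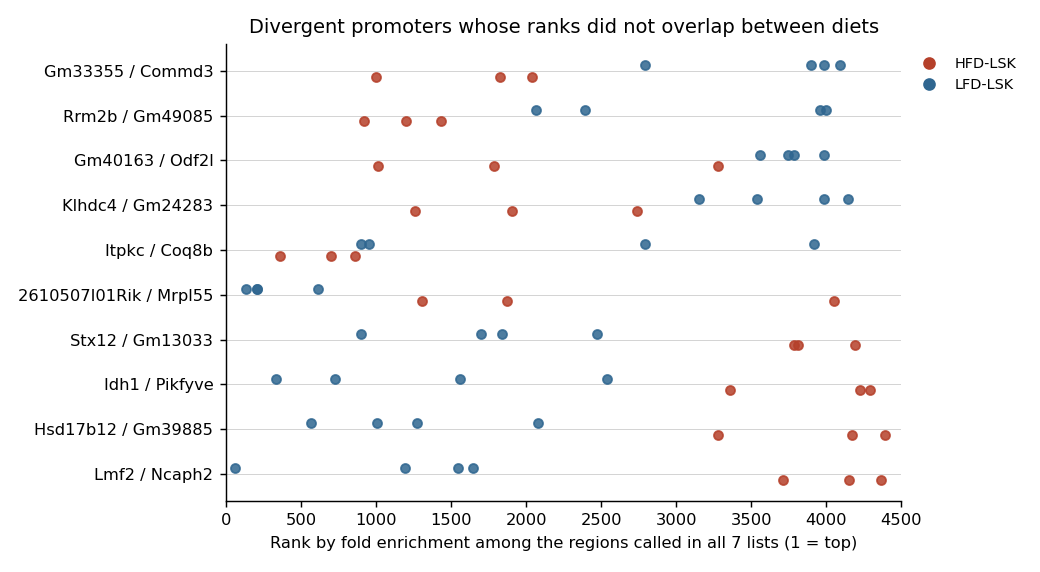
Rank by fold enrichment (1 is the top) among the 4395 regions called in all 7 lists for the 10 divergent promoters with the largest rank differences whose HFD-LSK (red) and LFD-LSK (blue) libraries did not overlap. The upper 5 rows lie nearer the top in HFD-LSK, such as Gm33355–Commd3 at 1002 to 2039 against 2794 to 4095, and the lower 5 farther from it, such as Lmf2–Ncaph2 at 3715 to 4363 against 63 to 1644.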

How the data were processed

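H3K4me3 was profiled in 3 HFD-LSK and 4 LFD-LSK libraries. The 7 IgG libraries were not analysed here. The authors deposited 1 MACS2 narrowPeak list per library, with no pooling, on GRCm38 per the labels, which also name Trim Galore, Bowtie2, Picard, bedtools, HOMER and featureCounts without versions. The study's methods name GRCm39 and another peak caller for the same assay, and the lists were read as GRCm38, the build the labels give. The deposited columns were a display score, fold enrichment (a ratio to local background), -log10 p, -log10 q and the summit's offset. Neither counts nor read totals are part of the lists, so no count model was fitted, as planned.

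Peaks of all lists were merged where they overlapped or touched. Gene starts were the outer ends of 45054 RefSeq genes of GRCm38.p6, with the strand from the RefSeq promoter table (27025) or, by symbol and chromosome, from GENCODE vM39 (18029). Genes without a strand (9.8% of 49943) were left out. Where a region held several pairs, coding pairs and then the closest were taken. A region's value in a library is that of its strongest peak. Summit fragments were solved from fold enrichment and p with the formulas MACS2 uses, which gave whole fragments within a relative error of 5e-05 for 100% of peaks in every list, with more than 1 solution for 0.0144% to 1.92%.

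Diets were compared by exact permutation of the 7 libraries, and divergent with single-gene promoters by exact sign flips of the 7 within-library differences. Ranks were taken among the regions called in every list. The tests across regions were adjusted after Benjamini and Hochberg (statsmodels 0.14.6). Python 3.11.15, numpy 2.4.6, pandas 2.3.3 and scipy 1.17.1 were used, and the steps were tested on made-up data. Named regions were the textbook pairs, the 10 of highest mean percentile, the 5 widest, those called in only 1 diet, the 5 largest non-overlapping rank differences in each direction, at most 10 per gene list, and the 5 coding pairs with the closest starts. Some regions and genes that these choices cover are not reported here. The members and the gene lists were chosen with earlier results of these data known. Alternatives changed the q threshold, the number of peaks, the calling limit, the merging distance, the call, the windows and gaps at starts, the annotation, the rank measure and the libraries. Intervals for fragments cover counting error only.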

Additional observations from a re-analysis of the deposited data

Results flagged for a closer look

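Summit levels stood out in 1 of the 4 LFD-LSK libraries at 3 divergent promoters. In LFD-LSK replicate 3 the level was 262 at Gm11423–Lig3, 187 at Tepsin–Ndufaf8 and 210 at Rpa3–Umad1, below the other LFD-LSK libraries at 318 to 326, 290 to 303 and 348 to 370. The gap to the nearest library was 0.886, 0.889 and 0.863 of the range of the 4, above Dixon's 95% critical value for 4 samples. Of 80 groups of 4 values tested, 3 were picked out, and chance picks about 1 in 20. The median level of divergent promoters in this library was 180, against 250 to 272 in the other LFD-LSK libraries, and the part of this lower level in the 3 results was not tested.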

How the results depend on the processing

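The differences between divergent and single-gene promoters in share called, width, fold enrichment and summit position, and between the coding and noncoding sides, kept their direction and stayed past the threshold of 0.05 under all alternatives run for them (exact sign-flip test). Their ranges were 8.69 to 15.4 points, 163 to 257 bp, 0.18 to 0.33 (log2), 4.43 to 11.3 points and 46.8 to 59.3 points. The ends 11.3 and 46.8 came with overlapping starts included, where they measure another quantity. A summit between overlapping starts lies downstream of both. It was counted as between the starts and, in mixed pairs, on both sides. The highest exact p was 0.0312, the smallest that 6 libraries can give. The difference in the share with more than 1 peak (exact sign-flip p) was 0.861 points with calls covering 50% of the region (p = 0.141), 0.53 with starts at most 500 bp apart (p = 0.0781), 0.0125 among coding pairs (p = 0.953), 0.619 with overlapping starts included (p = 0.0938), -0.41 with protein-coding genes alone (p = 0.0156), and 0.657 to 0.983 with 1 library left out (p = 0.0312 to 0.125, past the threshold only without HFD-LSK replicate 2 or 3).

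The number of divergent promoters was 685 with protein-coding genes alone, 493 with gaps read from the GRCm39 annotation by symbol and 2135 with overlapping starts included, which was added after the data had been seen. The diet differences did not pass the test under any alternative. The share called was -2.44 points with equally many peaks per list, and 7.06 to 15.0 points with 1 library left out. The width was 73.6 to 375 bp with 1 library left out. The percentile was 4.8 by -log10 p, 3 by summit level (chosen after seeing the data) and -4.08 to 3.6 with 1 library left out, positive without HFD-LSK replicate 3.

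Divergent promoters called only in HFD-LSK numbered 6 at -log10 q of at least 5, 13 with calls covering 50% of the region, 1 each with 500 bp windows, protein-coding genes alone and GRCm39 gaps, and 0 each at a common calling limit and for regions over a start. With 1 library left out they numbered 3 to 29, 29 without the first HFD-LSK library, and 14 and 9 on leaving out LFD-LSK replicates 2 and 3. Those called only in LFD-LSK numbered 5 with equal lists and 0 to 4 with 1 library left out, 4 without HFD-LSK replicate 2 and 1 without LFD-LSK replicate 1. Regions ranked nearer and farther numbered 7 and 11 at the q threshold, 5 and 10 with equal lists, 1 and 2 under the coverage rule, 4 and 10 with protein-coding genes alone, 4 and 9 with GRCm39 gaps, 20 and 29 with overlapping starts included, 19 and 19 by summit level, and 7 and 30 in whole-list ranks, the last 3 chosen after seeing the data. With any 1 library left out they numbered 21 to 57 and 31 to 63, since fewer libraries have to be separated. The cause of the other changes was not tested. The shares over all regions under these settings are not given here. The counts therefore do not show whether divergent promoters differed from other regions under any of them.

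The replicate numbers 1 to 3 are shared by the diets in the labels. The deviations of same-numbered libraries from their diet's mean ranks correlated at 0.159, -0.00381 and 0.0547. HFD-LSK replicate 1 correlated most strongly with its own number, and replicates 2 and 3 with other numbers (0.062 and 0.058). Deviations from means of 3 and 4 libraries cannot decide whether the numbers pair the libraries. The study's methods state that its own differential analysis took batch and paired samples into account. With the replicate block the diet difference (exact test within pairs) was 7.05 points in share called (p = 0.25), 153 bp in width (p = 0.5) and -1.56 in percentile (p = 0.75), where 3 pairs cannot give a p under 0.25, so no call changed.

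Depth limits the comparison of diets, since a region missing from the LFD-LSK lists may lie below their calling limits of 58.1 to 101 times the mean coverage, and a summit of 21 fragments has a counting interval of 13 to 32.1. Starts are gene ends in RefSeq, and other starts of a gene were not used.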
